A study of Ramazzottius varieornatus with 18 samples.

Results

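The 4 transcripts described here encode Argonaute family proteins of the tardigrade Ramazzottius varieornatus. They are g3665.t1 and g11139.t1, both named argonaute-1, g4269.t1, named argonaute-2, and g10304.t1, named Piwi-like Ago3. They were chosen by their names in the study's list of piRNA pathway genes, and are 4 of the 7 argonaute transcripts in that list and of the 14532 transcripts in the files. The study compared gene expression in embryos and juveniles of this species and of Hypsibius exemplaris, and only juveniles of this species are described here. The groups were whole juveniles of the strain YOKOZUNA-1 at day 2, 3, 4, 5, 6 and 7 of the juvenile stage (Juvenile 2d to 7d), and each day had 3 libraries, 18 in all. All animals were grown on agar with Volvic water and fed Chlorella vulgaris, and no agent or mutation is given for any group. The number of animals in a library is not given in the sources used here. Nothing in the labels says that the libraries of a day came from separate cultures, so p-values measure the spread between these libraries, which may be technical.

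Argonaute proteins hold a small RNA and use it as a guide to find matching transcripts, which are then cut, translated less or silenced at the gene. The family has an Argonaute branch, which works with microRNAs and small interfering RNAs in most tissues, and a Piwi branch, which works with piRNAs and is known above all for keeping transposons silent in the germline. In Drosophila, Argonaute-1 is the main partner of microRNAs, Argonaute-2 carries small interfering RNAs in antiviral and transposon defence, and Ago3 is a Piwi protein that takes part in piRNA amplification. The names of the tardigrade transcripts rest on sequence similarity, and these roles are known from the fly.

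Levels are given as TPM (the transcript's share of all transcripts), a unit that corrects for library size and transcript length. Total estimated counts of a library lay between 1250604, in Juvenile 7d replicate 3, and 5095736, in Juvenile 6d replicate 1. The correlation of libraries of a day was lowest within Juvenile 6d, at 0.841 between replicates 1 and 3, and was 0.878 and 0.871 between Juvenile 7d replicate 3 and the other libraries of its day. The libraries are of whole animals, so fewer cells of a type and less RNA per cell cannot be told apart. All counts of the 4 transcripts were whole numbers in all 18 libraries, and each came from a gene with 1 transcript. Of all counts of a library, 91.8% to 94.0% were whole numbers. Their coding sequences were 2757 bp (g3665.t1), 3078 bp (g11139.t1), 2721 bp (g4269.t1) and 3084 bp (g10304.t1).

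The argonaute-1 transcript g11139.t1 was the most abundant of the 4 in all 18 libraries, and the Piwi-like g10304.t1 the least. Over the 18 libraries g11139.t1 averaged 36.7 TPM, g4269.t1 8.70 TPM, g3665.t1 5.64 TPM and g10304.t1 0.592 TPM. These means ranked 3274, 6832, 7824 and 11145 among the 14532 transcripts. The order of argonaute-2 and of the second argonaute-1 was less settled. In 14 libraries g4269.t1 was above g3665.t1, and in 4 libraries, all 3 of Juvenile 2d and 1 of Juvenile 4d, it was below. The ranges of these 2 transcripts overlapped at Juvenile 2d and 4d and were apart on the other 4 days.

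**Figure D1:**
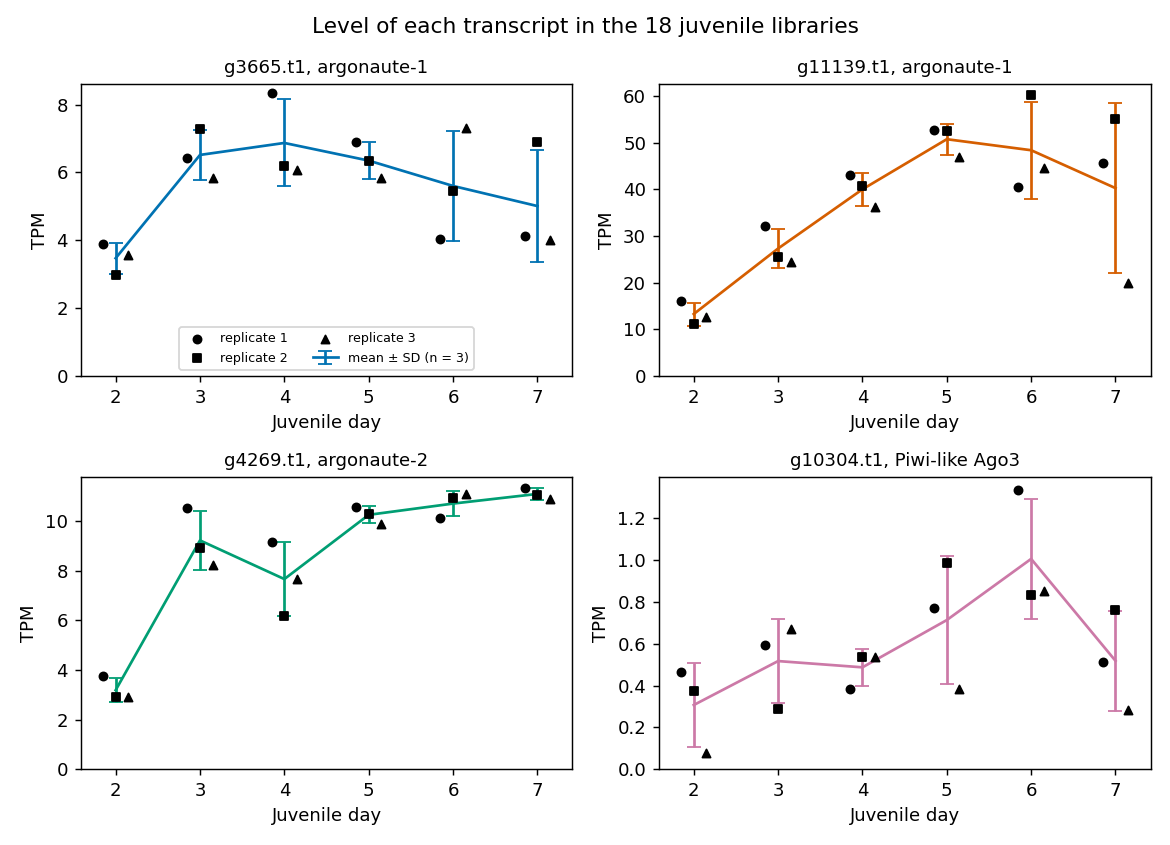
TPM of the 4 transcripts in each library by juvenile day. Points are libraries (circles, squares and triangles for replicates 1, 2 and 3), lines join daily means and bars are SD (n = 3). All 4 daily means were lowest at Juvenile 2d; g11139.t1 was highest at 5d with 50.8 TPM, and its lowest later library was Juvenile 7d replicate 3 at 19.9 TPM.

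By mean TPM, all 4 transcripts were lowest at Juvenile 2d, and each was highest on a different day. The highest mean came at Juvenile 4d for g3665.t1 (1.98 times that of 2d), at 5d for g11139.t1 (3.82 times), at 6d for g10304.t1 (3.28 times) and at 7d for g4269.t1 (3.48 times). These ratios are on the TPM scale, on which the median of all 10436 transcripts tested was also higher after Juvenile 2d, by 0.41 on the log2 scale (TPM + 0.1) for Juvenile 3d to 7d, against 0.07 after the TMM scaling of edgeR. Fold changes below are those of edgeR, called at a Benjamini-Hochberg adjusted p of up to 0.05 over all transcripts tested. All 4 transcripts passed the filter on low counts. The days of the highest means depend on the scale. In edgeR the log2 fold change was −0.11 for g3665.t1 at Juvenile 4d against 3d. It was −0.09 for g4269.t1 at Juvenile 7d against 6d, and neither was called.

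The argonaute-1 transcript g3665.t1 had 3.88, 2.97 and 3.56 TPM at Juvenile 2d. It had 6.42, 7.29 and 5.84 TPM at Juvenile 3d, 8.35, 6.19 and 6.06 TPM at 4d, and 6.89, 6.33 and 5.82 TPM at 5d. At Juvenile 6d it had 4.05, 5.45 and 7.30 TPM and at 7d 4.12, 6.91 and 4.00 TPM. All 15 later libraries were above all 3 of Juvenile 2d, and the libraries of 6d and 7d spread over the widest range. The daily means were 3.47 ± 0.46, 6.52 ± 0.73, 6.87 ± 1.28, 6.35 ± 0.53, 5.60 ± 1.63 and 5.01 ± 1.65 TPM for Juvenile 2d to 7d (SD, n = 3 each). The counts behind these values ran between 25 and 153 reads a library.

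The other argonaute-1 transcript, g11139.t1, had 15.99, 11.2 and 12.7 TPM at Juvenile 2d. It had 32.1, 25.4 and 24.5 TPM at Juvenile 3d, 43.1, 40.7 and 36.3 TPM at 4d, and 52.8, 52.6 and 46.9 TPM at 5d. The 3 libraries of each of these days lay wholly above those of the day before. At Juvenile 6d the transcript had 40.4, 60.2 and 44.6 TPM and at 7d 45.7, 55.2 and 19.9 TPM. The daily means were 13.3 ± 2.46, 27.3 ± 4.15, 40.0 ± 3.47, 50.8 ± 3.32, 48.4 ± 10.4 and 40.3 ± 18.2 TPM (SD, n = 3 each). The low value at Juvenile 7d came from replicate 3, the library with the fewest counts, in which 141 reads fell on the transcript and the 95% Poisson interval, which covers counting error only, was 16.8 to 23.5 TPM. The part of that library's depth in the low value was not tested.

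Argonaute-2, g4269.t1, had 3.75, 2.92 and 2.89 TPM at Juvenile 2d and 10.5, 8.93 and 8.22 TPM at 3d. It had 9.16, 6.18 and 7.67 TPM at Juvenile 4d and 10.6, 10.3 and 9.90 TPM at 5d. At Juvenile 6d it had 10.1, 10.9 and 11.1 TPM and at 7d 11.4, 11.0 and 10.9 TPM. The Juvenile 2d libraries stood far below all others, and the 9 libraries of Juvenile 5d to 7d lay within a narrow band of 9.90 to 11.4 TPM. The daily means were 3.19 ± 0.49, 9.23 ± 1.19, 7.67 ± 1.49, 10.3 ± 0.35, 10.7 ± 0.52 and 11.1 ± 0.23 TPM (SD, n = 3 each). In Juvenile 7d replicate 3, where g11139.t1 was low, argonaute-2 was at 10.9 TPM.

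The Piwi-like Ago3 transcript, g10304.t1, was detected in all 18 libraries at 2 to 41 reads, 230 reads in all. It had 0.466, 0.376 and 0.0800 TPM at Juvenile 2d, 0.594, 0.290 and 0.669 TPM at 3d, and 0.386, 0.538 and 0.539 TPM at 4d. It had 0.770, 0.987 and 0.384 TPM at Juvenile 5d, 1.34, 0.832 and 0.851 TPM at 6d, and 0.512, 0.762 and 0.282 TPM at 7d. The 3 libraries of Juvenile 6d lay above those of 7d in TPM, and the other neighbouring days overlapped. Juvenile 7d replicate 2 held 16 reads, and Juvenile 6d replicates 2 and 3 held 15 and 14. Their 95% Poisson intervals overlapped, at 0.435 to 1.24, 0.466 to 1.37 and 0.465 to 1.43 TPM. The daily means were 0.307 ± 0.202, 0.518 ± 0.201, 0.488 ± 0.088, 0.714 ± 0.306, 1.01 ± 0.286 and 0.519 ± 0.240 TPM (SD, n = 3 each). The highest library, Juvenile 6d replicate 1, held 41 of the 230 reads and was also the most deeply counted, while the lowest 2 libraries by count held 2 reads each.

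From Juvenile 2d to 3d argonaute-2 and the argonaute-1 g3665.t1 rose. The log2 fold change was 1.24 for g4269.t1 (SE 0.16, 95% interval 0.90 to 1.58, edgeR adjusted p = 0.000318) and 0.62 for g3665.t1 (SE 0.18, 0.23 to 1.01, edgeR adjusted p = 0.0215). These are 2 of 4 transcripts called higher, where 14% of all transcripts tested were called higher. The change of g11139.t1 was 0.75 (SE 0.28, 0.15 to 1.36) and was not called (edgeR adjusted p = 0.0635). All 3 Argonaute branch transcripts had TPM ranges at Juvenile 3d wholly above those at 2d, as did 42% of all transcripts tested. For g10304.t1 the value was 0.51 (SE 0.59, −0.76 to 1.78, edgeR adjusted p = 0.564), an interval that includes both a fall and a rise.

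Whether the early difference of g11139.t1 was called depended on the libraries in the fit and on the test. Its adjusted p for Juvenile 3d against 2d was 0.00580 in edgeR without Juvenile 7d replicate 3, and 0.00230 with only the libraries of the 2 days. With DESeq2 it was 0.0371, and with limma 0.0223 on log2(TPM + 1). The range over leaving out each library was 0.00580 to 0.179 by edgeR, and the log2 fold change stayed between 0.66 and 0.90. The call of g3665.t1 was in turn lost in edgeR when Juvenile 2d replicate 2 was left out (adjusted p = 0.0853), and likewise for replicate 3 of that day (0.0550) and for Juvenile 3d replicate 2 (0.0787), and that of g4269.t1 was kept in all 18 such fits (up to 0.00304).

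Between Juvenile 3d and 4d none of the 4 was called, where 12.5% of all transcripts tested were called in either direction. The log2 fold changes were −0.45 for g4269.t1 (SE 0.15, 95% interval −0.77 to −0.12, edgeR adjusted p = 0.0707), 0.38 for g11139.t1 (SE 0.28, −0.23 to 0.98, edgeR adjusted p = 0.427), −0.11 for g3665.t1 and −0.27 for g10304.t1. The 3 libraries of g11139.t1 at 4d were all above those at 3d on the TPM scale, as for 31.8% of all transcripts tested. The value of g4269.t1 was called in edgeR without Juvenile 6d replicate 1 (adjusted p = 0.0148).

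Between Juvenile 4d and 5d argonaute-2 rose again, by 0.62 on the log2 scale (SE 0.15, 95% interval 0.29 to 0.95, edgeR adjusted p = 0.00885). This was 1 of 4 transcripts called higher, where 13% of all transcripts tested were. It was 0.43 with limma on log2(TPM + 0.1) and not called there (adjusted p = 0.0777), a scale on which the median transcript was lower at 5d by 0.22. With limma on log2(TPM + 1) it was 0.39 and not called either (adjusted p = 0.0730). Leaving out each library kept the edgeR call of g4269.t1, at an adjusted p of up to 0.0495. The change of g11139.t1 was 0.54 (SE 0.28, −0.07 to 1.14, edgeR adjusted p = 0.185), and was called in edgeR without Juvenile 7d replicate 3 (adjusted p = 0.0318). With only the libraries of Juvenile 4d and 5d it was 0.55 and was called (edgeR adjusted p = 0.0170). Both transcripts had TPM ranges at 5d wholly above those at 4d, as did 18.2% of all transcripts tested. For g3665.t1 the value was 0.08 and for g10304.t1 0.73 (SE 0.57), neither called.

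After Juvenile 5d no step was called for any of the 4. For Juvenile 6d against 5d, where 8.63% of all transcripts tested were called, the log2 fold changes were −0.29 for g3665.t1, −0.15 for g11139.t1, 0.003 for g4269.t1 and 0.52 for g10304.t1. The 95% interval of g4269.t1 was −0.32 to 0.33. Without Juvenile 6d replicate 1 the log2 fold change of g10304.t1 was −0.063 in edgeR. For Juvenile 7d against 6d edgeR called 0% of all transcripts tested, with 1059 of 10436 at an unadjusted p of up to 0.05, and DESeq2 called 50. The value of g10304.t1 was −1.09 (SE 0.57, −2.29 to 0.12, edgeR adjusted p = 0.523), and its TPM ranges did not overlap, the 7d libraries being the lower, as for 3.03% of all transcripts tested.

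**Figure D2:**
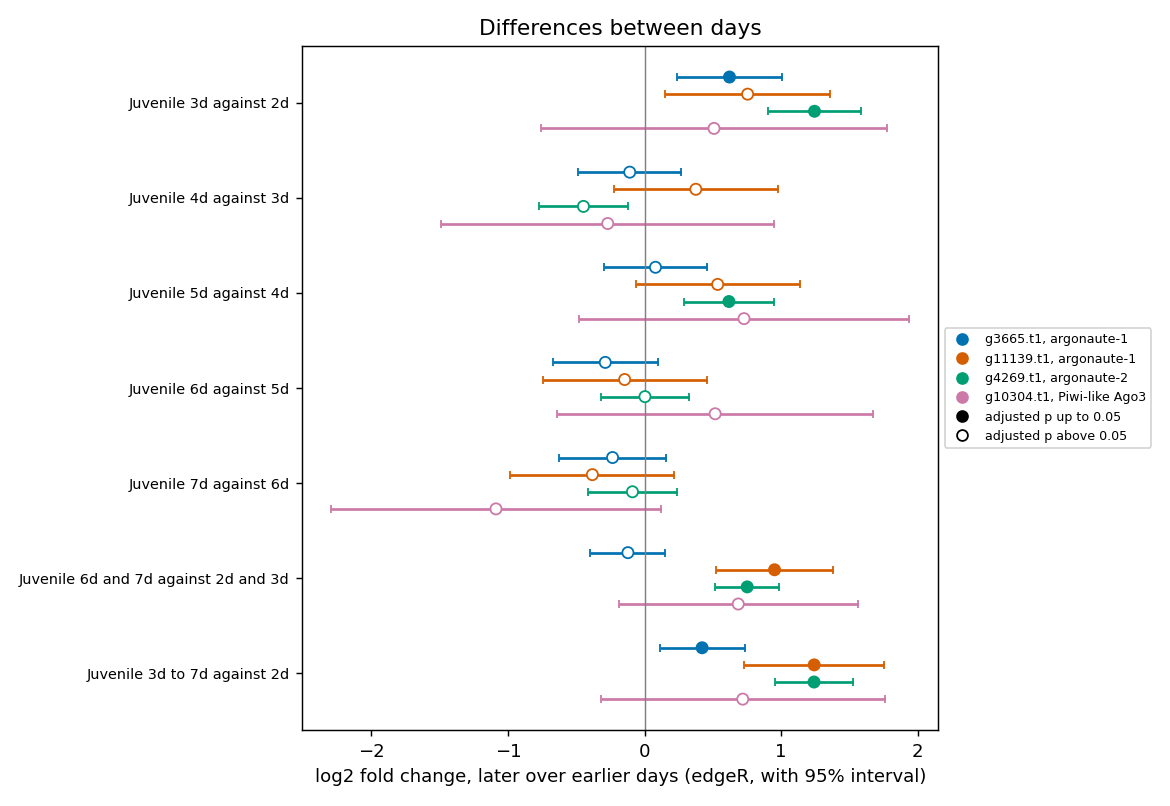
Log2 fold change of the 4 transcripts (horizontal axis, edgeR, later over earlier days, 95% interval as bars) in 7 comparisons of days. Filled points had an adjusted p of up to 0.05; g4269.t1 was called for 3d against 2d (1.24) and for 5d against 4d (0.62), and the intervals of g10304.t1 were the widest.

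Set against Juvenile 2d, the mean of the 5 later days was higher for all 3 Argonaute branch transcripts. The log2 fold change was 1.24 for g11139.t1 (SE 0.24, 95% interval 0.73 to 1.76, edgeR adjusted p = 0.000859), 1.24 for g4269.t1 (SE 0.13, 0.95 to 1.53, edgeR adjusted p = 2.7e-05) and 0.42 for g3665.t1 (SE 0.15, 0.11 to 0.73, edgeR adjusted p = 0.0271). Thus 3 of 4 were called higher, where 25.7% of the transcripts tested passed in that direction and 23% in the opposite one. The same 3 had later TPM values wholly above those of Juvenile 2d, as did 15.5% of all transcripts tested. For g10304.t1 the value was 0.72 (SE 0.49, −0.32 to 1.76, edgeR adjusted p = 0.236). The call of g3665.t1 was lost in edgeR without Juvenile 2d replicate 2 (adjusted p = 0.136) or replicate 3 (0.0707).

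The late juveniles (mean of 6d and 7d) set against the early ones (mean of 2d and 3d) parted the 2 argonaute-1 transcripts. g11139.t1 was higher late by 0.95 on the log2 scale (SE 0.20, 95% interval 0.52 to 1.38, edgeR adjusted p = 0.00192) and argonaute-2 by 0.75 (SE 0.11, 0.52 to 0.99, edgeR adjusted p = 0.000255). These are 2 of 4 called higher, where 27.2% of all transcripts tested were. For g3665.t1 the value was −0.12 (SE 0.13, −0.40 to 0.15, edgeR adjusted p = 0.466), and it was 0.11 with limma on log2(TPM + 0.1), not called on either scale. For g10304.t1 it was 0.69 (SE 0.41, −0.19 to 1.56, edgeR adjusted p = 0.185). Over all 6 days, a test of any difference gave an edgeR adjusted p of 7.3e-05 for g4269.t1, 0.00236 for g11139.t1, 0.0223 for g3665.t1 and 0.180 for g10304.t1, where 66.4% of all transcripts tested were called.

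A ratio of 2 transcripts within a library does not depend on how libraries are scaled. The ratio of g11139.t1 to g3665.t1 had daily means of 3.81 ± 0.28, 4.23 ± 0.75, 5.91 ± 0.71, 8.01 ± 0.32, 9.05 ± 2.60 and 8.02 ± 3.05 for Juvenile 2d to 7d (SD, n = 3 each). On the log2 scale, with 0.1 TPM added to each, it averaged 3.01 ± 0.48 in the 6 libraries of Juvenile 6d and 7d and 1.97 ± 0.19 in the 6 libraries of Juvenile 2d and 3d. The late libraries lay between 2.29 and 3.44 and the early ones between 1.79 and 2.30, so that only Juvenile 7d replicate 3, at 2.29, fell within the early range. The difference was 1.03 (two-sided exact permutation test over all 924 arrangements, p = 0.00433, smallest possible 0.00216). The test takes the 12 libraries as exchangeable although they come from 4 days, and it uses the same libraries as the edgeR comparison of late and early juveniles, so it is no independent support for that difference. It lay between 0.95 and 1.18 when each of the 12 libraries was left out.

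The ratio of argonaute-2 to g3665.t1 was below 1 in all 3 libraries of Juvenile 2d and above 1 in all libraries of Juvenile 6d and 7d. Its daily means were 0.921 ± 0.095, 1.42 ± 0.21, 1.12 ± 0.13, 1.62 ± 0.08, 2.01 ± 0.49 and 2.36 ± 0.66 for Juvenile 2d to 7d (SD, n = 3 each). The libraries of Juvenile 6d and 7d spanned 1.52 to 2.76. No test was run on this ratio.

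**Figure D3:**
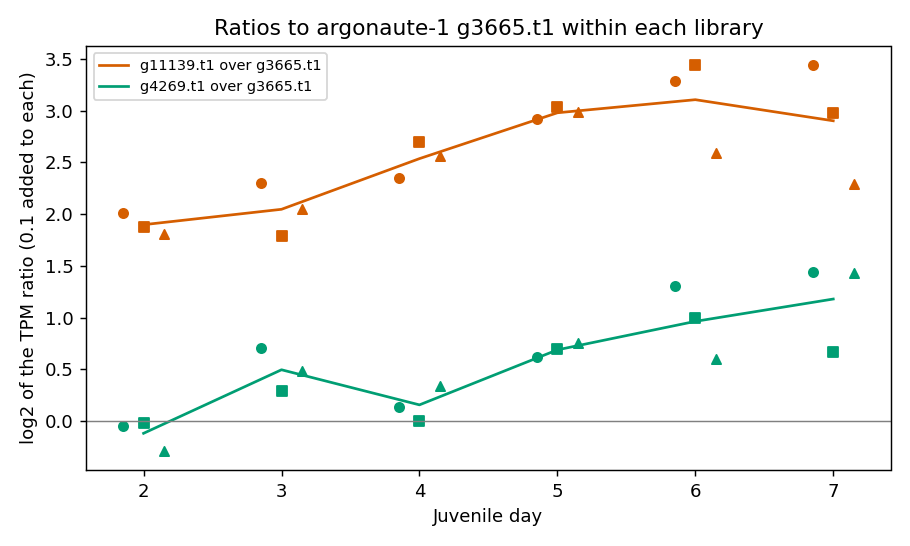
Log2 ratio of g11139.t1 (upper) and g4269.t1 (lower) to g3665.t1 within each library by juvenile day, with 0.1 TPM added to each value. Circles, squares and triangles are replicates 1, 2 and 3 and lines join daily means; the upper ratio averaged 3.01 over Juvenile 6d and 7d and 1.97 over Juvenile 2d and 3d.

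By share of the summed TPM of all 7 listed argonaute transcripts, g11139.t1 held 54.7% to 76.4% of a library (median 70.3%), g4269.t1 11.5% to 29.9% (median 15.5%) and g3665.t1 6.61% to 18.3% (median 11.4%). The Piwi-like transcript held 0.411% to 2.36%, with a median of 1.06%. The sum itself had daily means of 20.6, 44.1, 55.6, 68.95, 66.6 and 58.0 TPM for Juvenile 2d to 7d. The share of g3665.t1 had daily means of 17.0%, 14.9%, 12.3%, 9.21%, 8.46% and 8.92% over the same days. The lowest share of g11139.t1, 54.7%, and the highest of g4269.t1, 29.9%, both belonged to Juvenile 7d replicate 3.

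**Figure D4:**
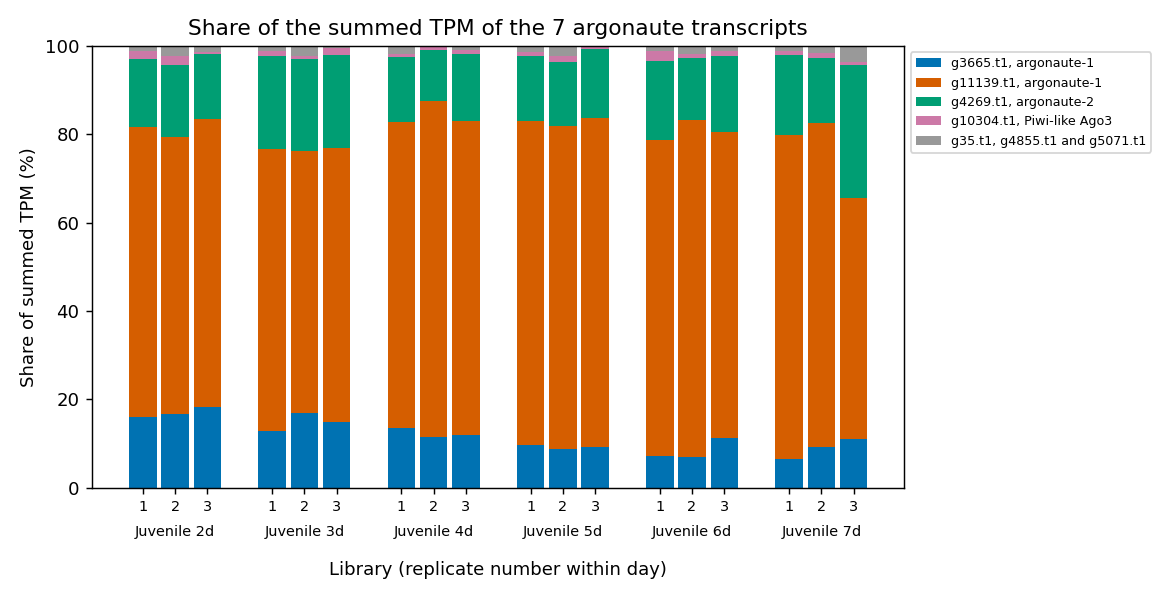
Share of the summed TPM of the 7 argonaute transcripts (vertical axis, %) in each of the 18 libraries, grouped by day. g11139.t1 held most of the sum in every library, between 54.7% in Juvenile 7d replicate 3 and 76.4%, and the share of g3665.t1 was between 6.61% and 18.3%.

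The other 3 transcripts of the study's list, g35.t1 and g4855.t1, both named argonaute-2, and g5071.t1, named argonaute-4, were near the limit of detection. They had 9, 36 and 8 reads over all 18 libraries, with 0 reads in 11, 3 and 14 libraries. None passed the filter on low counts, so 0 of 3 were tested. Their coding sequences, of 756, 924 and 1299 bp, were each shorter than 2721 bp, the shortest of the 4 above. A count of 0 allows up to 3 reads (a one-sided 95% limit, lower than the two-sided Poisson bound of 3.69 reads), which came to between 0.757 and 2.88 TPM for g35.t1, 0.577 and 0.773 TPM for g4855.t1 and 0.324 and 1.23 TPM for g5071.t1 in the libraries where they had none. A level equal to the mean of g10304.t1, 0.592 TPM, was below this limit for g35.t1 in all 11 libraries where it had no read. The limit is for 1 library at a time, and the mean of g35.t1 over all 18 libraries was 0.156 TPM.

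**Figure D5:**
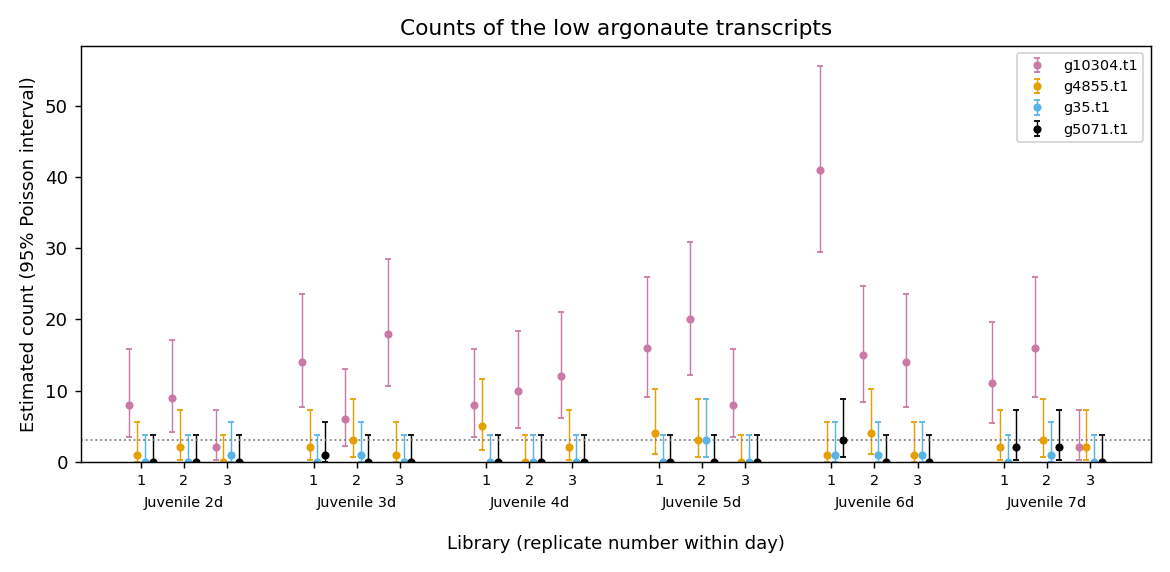
Estimated counts of g10304.t1 and of the 3 remaining listed argonaute transcripts in each library, grouped by day, with two-sided 95% Poisson intervals (counting error only). The dotted line marks 3 counts; g10304.t1 lay between 2 and 41 counts, and the others at or below 5.

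By the edgeR estimate over all days, the Piwi-like transcript varied most of the 4 relative to its level. Its biological coefficient of variation in edgeR was 39.8%, against 26.1% for g11139.t1, 13.9% for g3665.t1 and 13.3% for g4269.t1, and the median over all transcripts tested was 22.9%. This order did not hold on every day. At Juvenile 4d the SD of TPM was 18.1% of the mean for g10304.t1 and 19.4% for g4269.t1. At Juvenile 6d it was 28.4% for g10304.t1 and 29.1% for g3665.t1. Among the 4, the levels of g11139.t1 and g4269.t1 had the highest correlation over the 18 libraries, with a Pearson r of log2(TPM + 1) of 0.82 (Spearman rho 0.70). Without the 3 libraries of Juvenile 2d this r was 0.26 over 15 libraries, and the highest was then that of g11139.t1 and g10304.t1, at 0.51, against 0.64 with all 18. The r of g3665.t1 and g4269.t1 was 0.60 with these libraries and −0.22 without them. These are descriptions over libraries that share days, and the points are not independent.

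Of the other transcripts that the study named, the nearest in pattern to both g11139.t1 and g4269.t1 was g674.t1, which encodes a CAHS protein, 1 of the cytosolic heat-soluble proteins of tardigrades linked to survival of drying. Its r with g11139.t1 was 0.88 and with g4269.t1 0.87, and it ranked 19 and 16 among the 10435 other transcripts tested. Without the 2 libraries farthest from the median of the member, these r were 0.77 and 0.73. The next were the secreted heat-soluble protein SAHS g1676.t1 for g11139.t1 (r 0.79, rank 152) and a second CAHS, g4308.t1, for g4269.t1 (r 0.82, rank 93). For SAHS g1676.t1 the Spearman rho was 0.48, and r was 0.58 without the 2 farthest libraries. For g3665.t1 they were g4591.t1, which encodes the DNA-binding damage suppressor Dsup (r 0.75, rank 526), and g6536.t1, the nuclear receptor HR3 of the molting pathway (r 0.74, rank 587). The pattern of g10304.t1 was nearest to thioredoxin g4356.t2 (r 0.58, rank 83) and CAHS g12902.t1 (r 0.53, rank 159). By rank, each of these was further from its member than g674.t1, and how far each r rested on Juvenile 2d was not tested. Without the 2 farthest libraries r was 0.70 for g4308.t1, 0.62 for Dsup and 0.60 for HR3. It was 0.62 for thioredoxin and 0.41 for CAHS g12902.t1, whose Spearman rho was 0.40. The mean of g12902.t1 was 174 TPM at Juvenile 2d and 136 TPM at 3d. That of HR3 was 1.43 TPM at Juvenile 2d, 583 TPM at 4d and 68.7 TPM at 5d. Among all transcripts tested the nearest were g4890.t1 for g3665.t1 (r 0.94), g6159.t1 for g11139.t1 (r 0.94), g12086.t1 for g4269.t1 (r 0.92) and g10870.t1 for g10304.t1 (r 0.79), each over 18 libraries. Each was the highest of 10435 values.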

How the data were processed

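RNA of whole juveniles was amplified by the SMARTer method and sequenced as single-end reads without molecular identifiers. The authors quantified reads with kallisto on predicted coding sequences. The submitters' processing notes list bcl2fastq 2 and kallisto 0.42.4 and 0.44.0 without their roles. For each library the authors deposited estimated counts, not normalized, and TPM values that kallisto computed from them, and a TPM matrix whose values differed from the library files by 0.

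Groups were the juvenile days of the sample labels. The study's methods name days 3 to 7 for this collection, and the labelled days 2 to 7 were used. Members and lists were chosen with earlier results of these data known.

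Rounded estimated counts went into edgeR 4.0.16 under R 4.3.3 (TMM, filterByExpr by day at a minimum count of 10, quasi-likelihood F test, day as the only term, all 18 libraries, Benjamini-Hochberg over 10436 transcripts). Standard errors were the absolute log2 fold change over the square root of F. The alternatives were RLE, no filter, a mean above 1 TPM, DESeq2 1.42.0, limma 3.58.1 on log2(TPM + 1) and log2(TPM + 0.1), only the days compared, a replicate block, and leaving out each library. Levels, correlations and the exact permutation test used Python 3.11.15, scipy 1.17.1, pandas 2.3.3 and numpy 2.4.6, with matplotlib 3.10.9 for figures.

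Transcripts named were the 4 members, the other 3 listed argonautes, and for each member the 2 study-named transcripts and the 1 tested transcript with the highest r. Names come from the study. The reference table matched 0 of the transcript identifiers, so no genome positions are given.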

Additional observations from a re-analysis of the deposited data

How the results depend on the processing

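The calls of g4269.t1 for Juvenile 3d against 2d, and of g4269.t1 and g11139.t1 for Juvenile 3d to 7d against 2d and for Juvenile 6d and 7d against 2d and 3d, were kept in every alternative run. The numbers of transcripts called were 2694, 1308, 2591, 901 and 0 for the 5 steps in order. With only the days compared they were 4630 for 3d against 2d, 3006 for 4d against 3d and 10 for 6d against 5d. limma called 570 and 495 for 6d against 5d with 1 and 0.1 added, and DESeq2 called 50 for 7d against 6d. Leaving out 1 library gave ranges of 1665 to 3656, 490 to 2265, 1640 to 3497, 253 to 2809 and 0 to 446 for the 5 steps. The count moved by over 1.5 times for 3d against 2d when replicate 2 or 3 of 2d or replicate 1 or 2 of 3d was left out (1665 to 1731), for 4d against 3d with replicate 2 (851) or 3 (490) of 3d, replicate 1 of 4d (534) or replicate 1 of 6d (2265) left out, and for 5d against 4d with replicate 2 of 5d left out (1640). It did so for 6d against 5d with replicate 1 (253), 2 (289) or 3 (595) of 5d, replicate 1 (2809) or 2 (395) of 6d or replicate 3 of 7d (1574) left out, and for 7d against 6d with replicate 3 of 6d (446) or of 7d (47) left out.

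The following 3 fits were chosen after seeing the data. With Juvenile 2d to 5d only, the first 3 steps had 4556, 3392 and 4496 calls, and g11139.t1 was called in all 3 (edgeR adjusted p of 0.00112, 0.0449 and 0.00749). With 14 libraries, without those of Juvenile 6d and Juvenile 7d replicate 3, they had 4634, 3519 and 4631 calls, and g11139.t1 was again called in all 3 (edgeR adjusted p of 0.000704, 0.0444 and 0.00562). With 16 libraries, without replicate 3 of Juvenile 6d and of 7d, 4d against 3d had 2277 calls and 7d against 6d 800, and g11139.t1 was called for 3d against 2d and 5d against 4d. In these 3 fits g4269.t1 was called lower for 4d against 3d. The cause of these changes was not tested.

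Some log2 fold changes that were not called changed sign. For g3665.t1, limma gave 0.059 and 0.065 for 4d against 3d, −0.089 and −0.0998 for 5d against 4d, and 0.093 and 0.11 for Juvenile 6d and 7d against 2d and 3d. For g4269.t1, 6d against 5d was −0.051 with RLE, −9.1e-05 with no filter, −0.0014 with a mean above 1 TPM and −0.049 with DESeq2, and 7d against 6d was 0.048 and 0.052 with limma. For g11139.t1, 6d against 5d was 0.015 with 16 libraries. Leaving out 1 library gave −0.20 to 0.11 for g4269.t1, −0.063 to 0.83 for g10304.t1 and −0.25 to 0.015 for g11139.t1 at 6d against 5d, and −0.19 to 0.082 for g4269.t1 at 7d against 6d. The TPM scale moved the split of higher and lower calls: with limma on log2(TPM + 0.1), 76.9% of calls for 3d against 2d were higher, against 54.3% with edgeR, 41.4% against 52.2% for 5d against 4d, 72.9% against 59.1% for the late against the early days, and 76.4% against 52.8% for Juvenile 3d to 7d against 2d.

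The replicate numbers did not pair the libraries: over 45 pairs of the same number the correlation of deviations had a median of −0.036, and 1 of 18 libraries was closest to its own number. With a replicate block there were 2402, 1075, 2305, 667 and 0 calls for the 5 steps, g11139.t1 was called for 3d against 2d (edgeR adjusted p = 0.0481), g4269.t1 for 4d against 3d (0.0417), and g4269.t1 was −0.015 for 6d against 5d. For g10304.t1, with 2 to 41 reads a library and the highest coefficient of variation of the 4 (39.8%), the 95% intervals were the widest of the 4 in each comparison, and the parts of depth and of that spread were not tested.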
